A study of Bos taurus with 30 samples.

Results

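In 30 bull calves of the Holstein-Friesian breed, the miR-378 family was measured in the anterior pituitary, the lobe that secretes growth hormone, prolactin, the gonadotrophins and other hormones. Its members were taken by name, as the rows called miR-378 with or without a letter, which gave 4 of the 1030 mature miRNAs in the deposited table: bta-miR-378, bta-miR-378b, bta-miR-378c and bta-miR-378d. The family was taken up with its levels in the 2 diet groups known, so it counts as chosen by those levels. Small RNA of each calf was sequenced as 1 library at 12 weeks of age. From 2 weeks of age, 15 calves (HI) received 1.5 kg of milk replacer in 10 litres per day with concentrates ad libitum, and 15 calves (MOD) received 0.5 kg in 4 litres per day with 0.5 kg of concentrates. All calves were males of 1 breed, and each library holds every cell type of the lobe together. Several farms supplied the calves, and no label gives the farm of an animal.

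A miRNA is a short RNA that guides the silencing complex to messenger RNAs and lowers their output. In mammals miR-378 is carried in an intron of PPARGC1B, which encodes PGC-1β, a coactivator of mitochondrial biogenesis and fatty acid oxidation, and mice that lack this miRNA locus resist obesity on a high-fat diet. The family is therefore best known from fat, liver and muscle, and less is known of it in the pituitary.

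In the RefSeq gene table of the assembly ARS-UCD2.0, 5 genes carried the 4 mature miRNAs. MIR378-1 lay within PPARGC1B, and a second gene of the same mature miRNA, MIR378-2, lay within CALCR, the calcitonin receptor. MIR378C lay within ZNF521, which encodes a zinc finger transcription factor, and MIR378D within MSI2, which encodes an RNA-binding protein. MIR378B lay within no other gene, and the nearest protein-coding gene was NECTIN1, which encodes a cell adhesion protein. The mature row of miR-378 therefore sums the products of 2 genes, and its values cannot be divided between PPARGC1B and CALCR. The assembly differs from ARS-UCD1.2, the one of the deposited data, so it was used for names and neighbours only.

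Levels are TMM-normalized CPM, that is, reads scaled for the total and the composition of each library. Libraries held 6650492 to 11086524 reads on miRNAs. A miRNA with no read could have been present at up to 3 reads, or 0.266 to 0.419 CPM depending on the library, and this limit covers counting error only. miR-375 and miR-7, the miRNAs of pituitary endocrine cells, together held 119220 to 212047 CPM, whereas miR-122, the defining miRNA of liver, was at most 0.209 CPM. Of the 8 striated muscle miRNAs, miR-133c was at 0 in all 30 libraries and miR-1 and miR-206 reached at most 0.107 and 0.112 CPM. The summed level of the 8 ranged from 58.1 to 157 CPM, carried mainly by miR-499, miR-208b and miR-133a. In 3 libraries miR-143, a miRNA of smooth muscle and pericytes, stood above the rest: HI replicate 1 at 181565 CPM, HI replicate 9 at 80613 CPM and MOD replicate 5 at 75311 CPM, the next highest library being at 53137 CPM. The members' differences between the diets and in the second contrast below are also given without these 3 libraries. So are the members' correlations over all 30 libraries and the ratios in the second contrast. Other results include the 3 libraries.

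The 4 members differed in level by orders of magnitude and kept the same order in every library. miR-378 averaged 281 CPM and was 127th of the 1030 miRNAs, between miR-28 (283 CPM) and miR-1388-5p (252 CPM). miR-378c averaged 18.4 CPM and was 259th, between miR-543 and miR-2284y. miR-378d averaged 2.48 CPM and was 370th, between miR-2435 and miR-2284m. miR-378b averaged 0.213 CPM and was 563rd, between miR-12049 and miR-2446. These neighbours in the order lay within the spread of each member over the 30 libraries. Ligation during library preparation favours some sequences over others, so that levels of different miRNAs are compared only approximately.

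miR-378 made up 93.0% of the family's CPM on average and 90.8% to 94.7% in single libraries. miR-378c made up 6.09%, miR-378d 0.822% and miR-378b 0.0697%. A statement on the family's summed level is therefore a statement on miR-378.

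**Figure D1:**
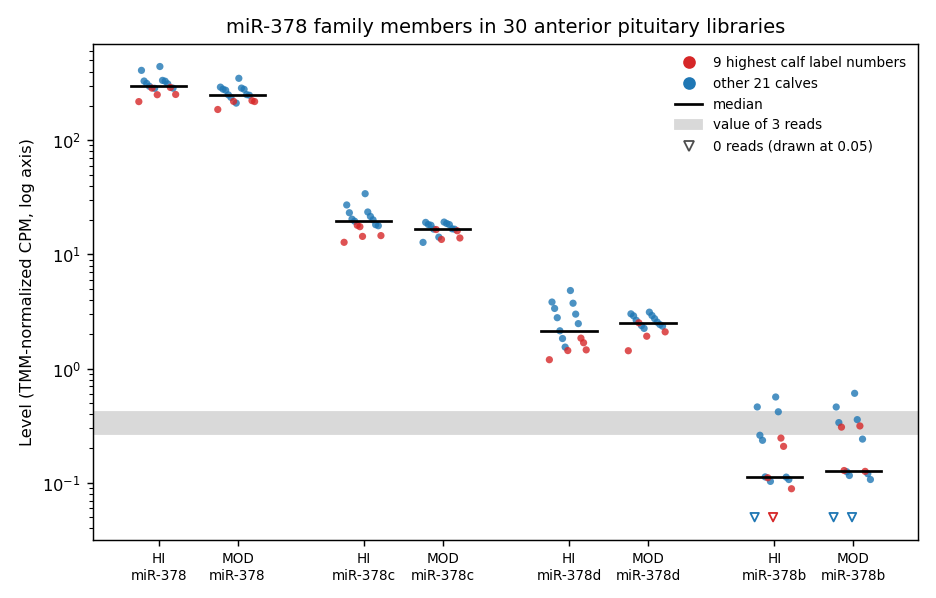
Level of each member in each library (TMM-normalized CPM, log axis), by diet, with 1 point per calf and the median as a black line; red points are the 9 calves with the highest label numbers, the grey band is what 3 reads were worth, and open triangles are libraries with 0 reads. The members lie about an order of magnitude apart, miR-378b lies at or near the grey band, and the HI and MOD points of each member overlap.

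miR-378b, the least abundant member, was hardly detected. It had 0 to 5 reads per library, was at 0 in 2 HI and 2 MOD libraries, and stood at or under 3 reads in 26 of 30. Its spread (coefficient of variation 78.5%) was close to the 73.9% that counting error alone gives at its mean read number. It did not pass the filter on low values, so 3 of the 4 members entered the fit over all miRNAs, and no difference in miR-378b was detectable at this depth.

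Over the 30 libraries, the other members varied beyond counting error, although miR-378d did not do so in every group of calves. The coefficient of variation over the 30 libraries was 20.1% for miR-378, where counting error gives 2.02%, and 24.0% for miR-378c, where it gives 7.93%. For miR-378d, with 12 to 41 reads per library, it was 32.7%, and counting error gives 21.6%. Within diet the SD on the log2 scale was 0.24 for miR-378, 0.28 for miR-378c and 0.33 for miR-378d. Of the 50 miRNAs nearest in level to each member, 20, 21 and 13 had a larger SD.

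The study compared HI with MOD calves, and the family was taken up with this contrast known, so the diet values are a description without a test. miR-378, the dominant member, lay at 218 CPM in the lowest HI calf, 297 CPM in the median and 442 CPM in the highest, and at 186, 250.1 and 349 CPM in the lowest, median and highest MOD calf. The groups overlapped broadly: the MOD median was exceeded by 14 of 15 HI calves, the highest MOD calf by 2 of them, and 2 MOD calves lay below the lowest HI calf. The means were 309 ± 57.6 CPM in HI (SD, n = 15) and 254 ± 40.9 CPM in MOD (SD, n = 15), and the difference on the log2(CPM + 1) scale was 0.28 with an SE of 0.09, or 1.21-fold. The diet difference was of like size among the 9 calves with the highest label numbers (0.29) and among the other 21 (0.31). In this tissue taken whole, fewer cells of a type and less RNA per cell cannot be told apart.

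miR-378c, the member carried in ZNF521, lay at 12.8 CPM in the lowest, 19.5 CPM in the median and 34.1 CPM in the highest HI calf. In MOD calves the lowest, median and highest were 12.8, 16.7 and 19.2 CPM. The low ends of the groups coincided, and 8 of 15 HI calves lay above the highest MOD calf. The log2 difference was 0.24 (SE 0.10), with 0.36 among the 21 calves and 0.03 among the 9.

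miR-378d, the member carried in MSI2, did not share this direction. The lowest, median and highest levels were 1.197, 2.15 and 4.83 CPM in HI calves and 1.43, 2.52 and 3.12 CPM in MOD calves. HI calves were spread on both sides of the MOD calves, with 4 above the highest and 1 below the lowest of them. The means were 2.48 ± 1.08 CPM (SD, n = 15) and 2.49 ± 0.447 CPM (SD, n = 15), and the log2 difference was -0.05 (SE 0.12), of which the sign turned (0.08) with miR-486 as a covariate.

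In the fit over 419 miRNAs, limma with Benjamini-Hochberg adjustment at FDR < 0.1 called 15 between the diets (3.58%), of which 8 were higher in HI (1.91%) and 7 lower. Scaling by total reads alone gave 16 higher and 2 lower, and upper quartile scaling 8 higher and 2 lower. With the fold change threshold of 1.5 as well, 2 were called (0.477%). These counts are the background of the contrast, and nothing is read from them for the family. The median log2 difference over all 419 was 0.02. When any 1 calf was left out, the log2 difference of miR-378 lay between 0.24 and 0.31, that of miR-378c between 0.19 and 0.28 and that of miR-378d between -0.11 and -0.01. HI replicates 1 and 9 were the 2 calves highest in miR-378 and in miR-378c and also 2 of the 3 highest in miR-143. With those 3 libraries left out, the log2 differences were 0.22 for miR-378, 0.15 for miR-378c and -0.12 for miR-378d, and the mean level of miR-378 was 291 ± 34.7 CPM (SD, n = 13) in HI and 252 ± 41.8 CPM (SD, n = 14) in MOD. The part of miR-143-rich tissue in the diet values was not tested. Of the 28 tested miRNAs of the 9 cell type lists, limma called 0 between the diets, with 5 at an unadjusted p under 0.05, and edgeR's quasi-likelihood test called 3, of which 2 belonged to the red blood cell list and 1 to the striated muscle list. In the red blood cell list the log2 differences were 0.46 for miR-144, 0.55 for miR-451 and -0.27 for miR-486, and their part in the diet values of the family was not tested.

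**Figure D2:**
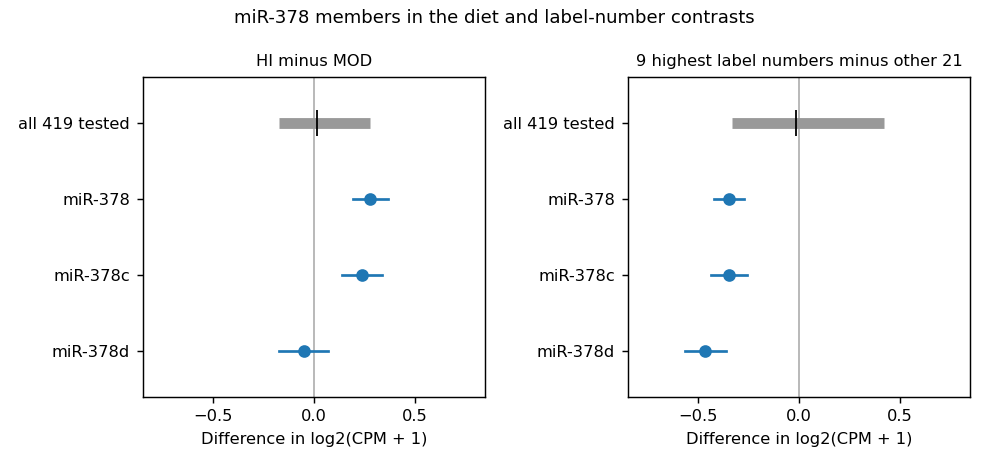
Difference in log2(CPM + 1) of the 3 members that passed the filter, for HI minus MOD (left) and for the 9 calves with the highest label numbers minus the other 21 (right); points are fitted differences, blue lines 1 SE to either side, and the grey bar with its black mark is the 5th to 95th percentile and the median of all 419 miRNAs. The 3 members lie below the grey bar in the right panel, and in the left panel miR-378 lies at the bar's upper end, at 0.28.

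A second contrast was not the one on which the family was taken up, although earlier results of these data were known by then. In these data the 9 libraries with the highest calf label numbers stood apart from the other 21, a set first noticed through miR-99b, and what the calves share is not given by the labels. The split was chosen with these data in view, so the tests between the sets are exploratory. Their FDR values do not allow for that choice. The 9 held 5 HI and 4 MOD calves and the 21 held 10 HI and 11 MOD calves, so the sets were compared with diet in the model. Their depths overlapped, with 7926451 to 11086524 reads in the 9 and 6650492 to 9577361 in the 21. Limma called 109 of the 419 miRNAs between the sets (26%), 60 of them lower in the 9 (14.3%), so a call in this contrast was common. The median log2 difference over all 419 was -0.02.

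All 3 tested members fell in the 9 calves. miR-378 lay at 186 CPM in the lowest, 222 CPM in the median and 290.0 CPM in the highest of the 9, and at 212, 286 and 442 CPM in the lowest, median and highest of the 21. The ranges overlapped, and 8 of the 9 lay below the median of the 21. The log2 difference was -0.35 (SE 0.07), or 21.4% lower (limma, FDR = 0.000954).

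miR-378c fell by 0.35 on the log2 scale (SE 0.09; limma, FDR = 0.00564). Its levels were 12.8 to 18.0 CPM with a median of 14.6 CPM in the 9, against 12.8 to 34.1 CPM with a median of 18.7 CPM in the 21. All 9 lay below the median of the 21, although the lowest library of all belonged to the 21.

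miR-378d fell by 0.46 on the log2 scale (SE 0.10; limma, FDR = 0.00138). Its lowest, median and highest levels were 1.197, 1.69 and 2.52 CPM in the 9 and 1.54, 2.74 and 4.83 CPM in the 21. All 9 lay below the median of the 21, and 4 of the 9 lay below the lowest of the 21. As the pseudocount of 1 is large beside these levels, the fitted difference understates the change of this member; with a pseudocount of 0.1 it was -0.65.

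These calls were kept under 9 other settings and whenever any 1 calf was left out. Without the 3 libraries highest in miR-143, the log2 differences were -0.30, -0.29 and -0.41 for miR-378, miR-378c and miR-378d (limma, FDR = 0.00193, 0.00774 and 0.00389). Both pituitary endocrine miRNAs moved the other way: miR-375 was higher in the 9 by 0.37 (limma, FDR = 0.000463) and miR-7 by 0.25 (limma, FDR = 0.0817), and their summed level was 159431 to 212047 CPM in the 9 and 119220 to 191519 CPM in the 21. Of the 4 tested striated muscle miRNAs, limma and edgeR each called 0, with 0 at an unadjusted p under 0.05 and a summed level of 58.1 to 78.2 CPM in the 9 and 60.3 to 157 CPM in the 21. The part of these cell types in the family's difference was not tested.

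**Figure D3:**
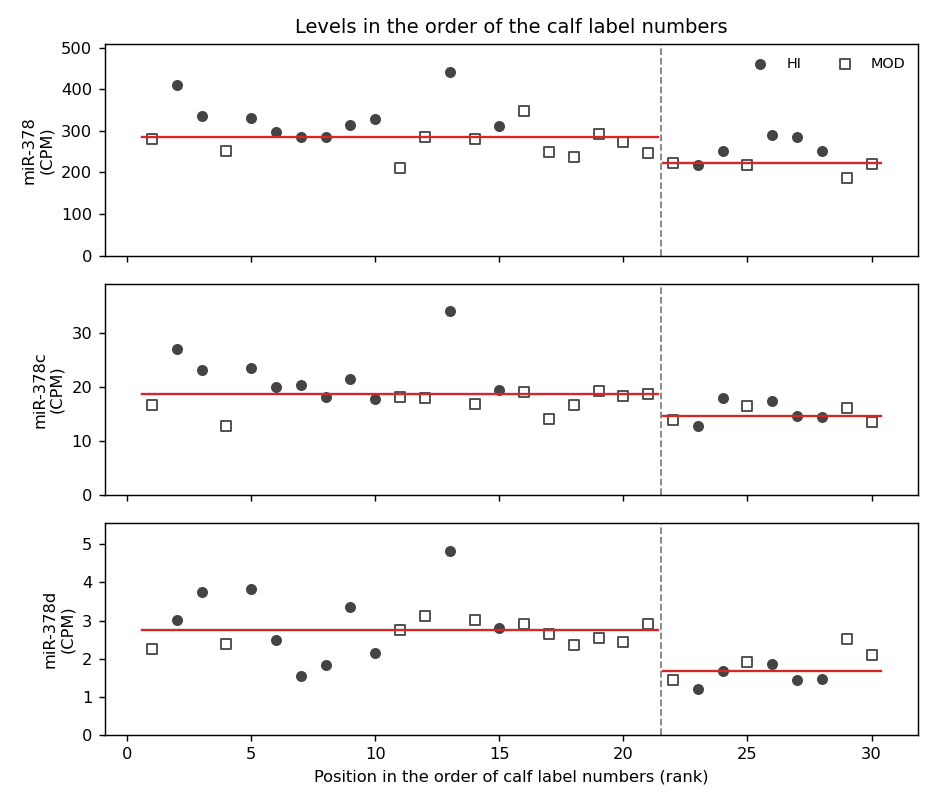
Level of miR-378, miR-378c and miR-378d (CPM, linear axes from 0) in the 30 libraries in the order of the calf label numbers, with filled circles for HI and open squares for MOD calves; red lines are the medians of the first 21 and the last 9 libraries, separated by the dashed line. The medians fall from 286 to 222 CPM, from 18.7 to 14.6 CPM and from 2.74 to 1.69 CPM, and the 2 diets are mixed on both sides of the line.

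The levels of miR-378 by diet and set together were as follows. Among the 21, the 10 HI calves lay at 285 to 442 CPM and the 11 MOD calves at 212 to 349 CPM. Among the 9, the 5 HI calves lay at 218, 251, 252, 286 and 290.0 CPM, and the 4 MOD calves at 186, 218, 219 and 222 CPM. The HI calves of the 9 therefore covered much the same levels as the MOD calves of the 21. The diet difference did not differ detectably between the sets for any member: the interaction was -0.02 (SE 0.15) for miR-378, -0.33 (SE 0.18) for miR-378c and -0.31 (SE 0.20) for miR-378d (limma, FDR = 0.971, 0.786 and 0.800). Over all 419 miRNAs limma called 0 interactions, with 21 at an unadjusted p under 0.05, and edgeR's quasi-likelihood test also called 0.

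The make-up of the family was then compared, as the ratio of each lesser member to miR-378 within a library, which does not depend on the scaling of the library. For every 100 CPM of miR-378 there were 6.56 ± 0.904 CPM of miR-378c and 0.885 ± 0.234 CPM of miR-378d (SD, n = 30). The ratio of miR-378c did not differ detectably between the 9 and the 21 calves (log2 difference -0.02, exact two-sided permutation test, p = 0.793). The ratio of miR-378d was lower in the 9 (log2 difference -0.36, exact two-sided permutation test, p = 0.0217, or 0.0434 adjusted over both ratios). Neither permutation test allowed for diet or for the label ranges given below. Without the 3 libraries highest in miR-143, the log2 differences were -0.01 for the ratio of miR-378c and -0.35 for that of miR-378d, without a test. The lower ratio was mainly that of the HI calves, with a log2 difference between the sets of -0.53 in HI and -0.10 in MOD calves; whether these differ was not tested. In the 5 HI calves of the 9 the ratio lay between 0.503 and 0.673, and in the 4 MOD calves it was 0.645, 0.880, 0.958 and 1.35. The label numbers also fall into ranges, by the digits after the first (19, 29, 37 or 78). The mean ratio was 0.615 in range 37 and 0.924, 0.844 and 0.943 in ranges 19, 29 and 78. HI replicates 14 and 15 and MOD replicate 15, of the 9, are in range 37. In range 78 the calves of the 9 lay at 0.549, 0.880, 0.958 and 1.35, on both sides of its mean. The HI calves of the 9 came from all ranges. The part of the ranges in the lower ratio was not tested. Between the diets, as a description, the ratio of miR-378d was 0.779 ± 0.232 in HI and 0.992 ± 0.188 in MOD calves (SD, n = 15 each), and the ratio of miR-378c was 6.48 ± 0.733 and 6.64 ± 1.07.

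**Figure D4:**
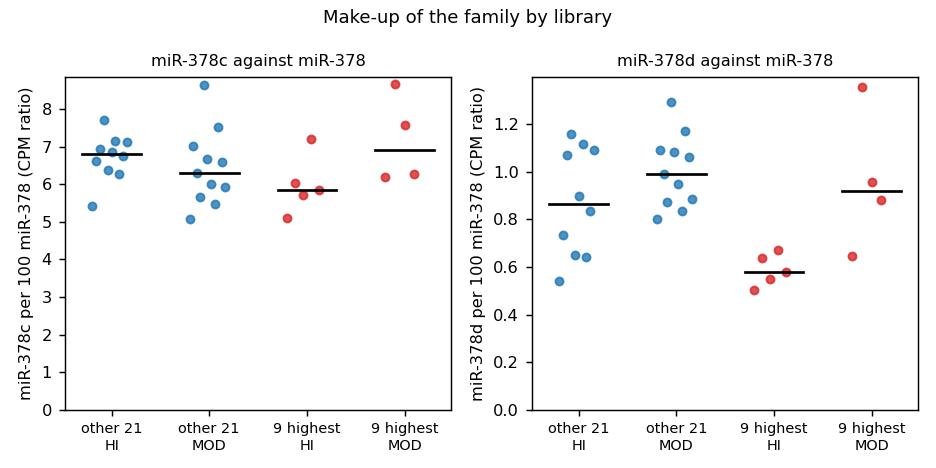
Level of miR-378c (left) and miR-378d (right) per 100 CPM of miR-378 in each library, by diet and by set of label numbers, with 1 point per calf and the median as a black line; axes start at 0. The 5 HI calves among the 9 highest label numbers lie between 0.503 and 0.673 for miR-378d, while the miR-378c ratios of the 4 groups overlap.

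Taken over all calves, the members varied together. On the log2 scale over 30 libraries, Pearson's r between miR-378 and miR-378c was 0.79 and Spearman's rho 0.74 (permutation p = 1e-05, the smallest that the permutations can give, and 4.0e-05; 3.0e-05 and 0.00012 adjusted over the 3 pairs). For all 3 pairs the 30 libraries were permuted without regard to diet or set, so differences between these groups enter the p-values. Without the 2 libraries farthest from the median of miR-378, r was 0.75. Within the 21 libraries r was 0.80 and within the 9 it was 0.26. Without the 3 libraries highest in miR-143 it was 0.65.

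For miR-378 with miR-378d, r was 0.56 and rho 0.52 (permutation p = 0.00133 and 0.0038, the same after adjustment over the 3 pairs), and r was 0.51 without the 2 farthest libraries. It was 0.51 within the 21, -0.43 within the 9 and 0.41 without the 3 libraries highest in miR-143, and the difference between the sets was not tested. For miR-378c with miR-378d, r was 0.71 and rho 0.65 (permutation p = 5.0e-05 and 0.00013, or 7.5e-05 and 0.00019 adjusted), and r was 0.62 without the 2 farthest libraries. It was 0.60 within the 21, 0.48 within the 9 and 0.64 without the 3 libraries highest in miR-143. Within the diets, r of the 3 pairs was 0.84 to 0.91 in HI and 0.44 to 0.55 in MOD calves. These values include the 3 libraries highest in miR-143, among them HI replicates 1 and 9, and were not computed without them. The difference in r between the diets was not tested. The libraries share normalization and, in HI, the calf highest in all 3 members, HI replicate 9.

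**Figure D5:**
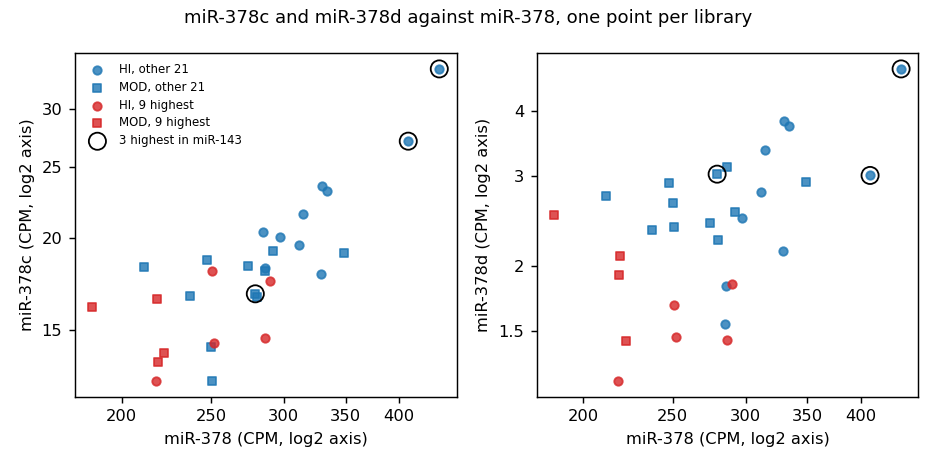
Level of miR-378c (left) and miR-378d (right) against miR-378 (CPM, log2 axes), with 1 point per library; circles are HI and squares MOD calves, red marks the 9 calves with the highest label numbers, and rings mark the 3 libraries highest in miR-143. miR-378c rises with miR-378 (r = 0.79), the red points lie at the lower left, and the highest point of both panels is HI replicate 9, at 442 CPM of miR-378.

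When all tested miRNAs were ordered by Spearman's rho with miR-378 over the 30 libraries, centred within diet, the first were miR-378d (0.71) and miR-378c (0.67). They were followed by miR-98 (0.65), a miRNA of the let-7 family, miR-10a (0.65), which lies in a HOX cluster, and miR-155 (0.62), a miRNA of immune cells. Between the sets of label numbers, miR-10a fell in the 9 calves by 1.80 on the log2 scale (limma, FDR = 3.18e-05) and miR-98 by 0.25 (limma, FDR = 0.00129), while the difference of -0.31 in miR-155 did not pass (limma, FDR = 0.130). Centred within diet and within set, 2 of the 5 stayed among the first 5, miR-378c as the third (0.50) and miR-155 as the fourth (0.49), while miR-378d was 24th (0.35), miR-98 28th and miR-10a 74th. These values are descriptions over libraries that share normalization.

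The family was set beside other miRNAs of metabolism, in 2 lists. These lists were chosen with earlier results of these data known, so their counts and FDR values are a description. Of 7 miRNAs carried in genes of metabolism or contraction, 6 were tested, and limma called 1 between the diets, where it called 3.58% of all tested miRNAs: miR-33a, carried in the sterol regulator gene SREBF2, was lower in HI by 0.23 on the log2 scale (FDR = 0.0396). miR-103 and miR-107, carried in the pantothenate kinase genes, had differences of -0.02 and 0.04, and the median of the 6 was -0.01. Of 13 miRNAs of brown fat and oxidative muscle, 9 were tested, and limma called 2 between the diets, beside 3.58% of all tested miRNAs. Both were arms of miR-455, a miRNA of brown fat differentiation, and were higher in HI (miR-455-5p by 0.39, FDR = 0.0256, and miR-455-3p by 0.35, FDR = 0.0412, limma). As arms of 1 miRNA they are not independent. The others went both ways, from -0.27 for miR-486 to 0.21 for miR-193b. The median of the 9 was 0.07. In the contrast of label numbers, limma called 1 of the 6 (miR-33b, -0.34, FDR = 0.0212) and 3 of the 9 (miR-193a-3p, -0.30, FDR = 0.0570, and miR-455-3p and miR-455-5p, -0.25 and -0.23), all lower in the 9 calves, and the medians of the lists were -0.09 and -0.23. Over all 419 miRNAs 26% were called in this contrast, so the lists' counts were near the background.

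The deposited values of miR-378 were not all whole reads. In 15 of 30 libraries its read number ended in 0.5, whereas miR-378b, miR-378c and miR-378d were whole in all 30. No other row had fractional reads in exactly the same 15 libraries, and how the fractions arose was not tested. Members with near-identical sequence can exchange reads in counting, and the small values of miR-378b and miR-378d are uncertain to that extent. With the reads of the 4 members summed, the diet difference was 0.27 (SE 0.09).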

How the data were processed

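Small RNA libraries of the anterior pituitary of 15 HI and 15 MOD calves were analysed, with groups taken from the labels. The authors trimmed adapters with cutadapt, discarded reads of other short RNA classes, and used miRDeep2 with the bovine assembly ARS-UCD1.2 to quantify mature miRNAs, and the submitters' processing notes also name FastQC and edgeR. The deposited values are a normalized signal, CPM scaled by TMM factors, and not raw counts. Reads were recovered from the value of 1 read in each library. Of the 465 to 501 nonzero values of lower read number checked per library, at least 94.7% were whole (tolerance 0.001). Rows of higher read number, miR-378 among them, were outside this check.

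The fit used limma 3.58.1 in R 4.3.3 (lmFit, eBayes with trend) on log2(CPM + 1), computed from the deposited values, for the 419 miRNAs that passed filterByExpr of edgeR 4.0.16 by diet. Thresholds were FDR < 0.1 (Benjamini-Hochberg) and, where stated, a fold change above 1.5. The quasi-likelihood test of edgeR, run on those reads after rounding, called 21. The fits were tested on simulated data. Ratios were compared with exact permutation tests and correlations with permutation tests (scipy 1.17.1). Alternatives were other scalings (total reads, upper quartile, DESeq2 1.42.0 size factors), filters, a pseudocount of 0.1, covariates, summed members and leaving out each calf.

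The named miRNAs are the 4 members, the 5 most like miR-378, those ranked beside each member, and the members of 2 lists of metabolic miRNAs and 9 lists of cell type markers (striated muscle, red blood cell, white blood cell, pituitary endocrine, epithelial, stromal, endothelial, neural and liver). Other miRNAs that the text names were picked with their values in view. The members and lists were chosen with earlier results of these data known. Mature sequences were not analysed here, and RefSeq genes (ARS-UCD2.0) served only to name the genes that hold or neighbour each member.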

Additional observations from a re-analysis of the deposited data

Results flagged for a closer look

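Within the 4 MOD calves of the 9 with the highest label numbers, MOD replicate 6 stood apart in miR-378, at 186 CPM where the other 3 lay at 218 to 222 CPM. On the log2(CPM + 1) scale the gap was 0.898 of the range of the 4, above the critical value for 4 samples. The calf was also the lowest of all 30 in miR-378 and had the highest ratio of miR-378d to miR-378, 1.35 per 100. In all, 12 groups were checked in this way and 1 stood out. Chance flags about 1 group in 20, so 1 flag among 12 groups can arise by chance.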

How the results depend on the processing

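The diet difference of miR-378 ranged from 0.22 to 0.34 on the log2 scale over the alternatives, that of miR-378c from 0.15 to 0.35 and that of miR-378d from -0.12 to 0.08. The lowest values for miR-378 and miR-378c, and -0.12 for miR-378d, came without the 3 libraries highest in miR-143, an alternative chosen after seeing the data. The number of all miRNAs called ranged from 10 to 21. Between the sets of 9 and 21 calves the differences over 9 alternatives were -0.42 to -0.30 for miR-378, -0.38 to -0.29 for miR-378c and -0.70 to -0.41 for miR-378d (FDR of at most 0.00201, 0.0142 and 0.0112). Of the 5 miRNAs most like miR-378, 4 were kept with Pearson's r and 2 with centring within diet and set. The paper states that calves were assigned to the diets in blocks of age, weight, sire and farm, which the labels do not give. An analysis by those blocks was therefore not possible, and the replicate numbers do not pair HI with MOD calves. With the label number range or the set of 9 as a block instead, the diet difference of miR-378 was 0.27 and 0.30. Depth limits miR-378b, and counting error is large for miR-378d.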

Other observations

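The miRNAs that share a gene with a member were looked at after the values of the family were seen. miR-489 and miR-653 lie with MIR378-2 within CALCR in RefSeq. miR-489 had at most 6 reads in a library and was at or under 3 reads in 29 of 30, and miR-653 had a median of 1 read, stood at or under 3 reads in 24 of 30 and reached 47 reads in 1 library. miR-12051, which lies with MIR378C within ZNF521, had at most 3 reads. The level of miR-378 was 281 CPM, and PPARGC1B held no other miRNA gene. These values do not divide miR-378 between its genes, and from which of them its reads came was not tested.

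At the other end of the order of likeness to miR-378, centred within diet, stood miR-409a (Spearman's rho -0.70), a miRNA of the imprinted cluster around DLK1 and MEG3, and miR-29d-3p (-0.67). These are descriptions over 30 libraries that share normalization.

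Among the 28 tested miRNAs of the cell type lists, limma called 6, a smaller share than the 26% over all miRNAs, in 3 lists between the sets of 9 and 21 calves: 2 of 2 endocrine miRNAs were higher in the 9, of 5 epithelial miRNAs 2 were higher and 1 lower, and 1 of 2 tested neural miRNAs was higher. Of the tested red blood cell (3), white blood cell (4), stromal (6) and endothelial (2) miRNAs, limma and edgeR's quasi-likelihood test each called 0, with 0 at an unadjusted p under 0.05.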
